A study of Mus musculus with 6 samples.

Results

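The genes described here, 7 of 18194 named on the array, Irf4, Irf8, Batf3, Spib, Zbtb46, Id2 and Bcl11a, encode transcription factors and an inhibitor of transcription factors that set the identity of dendritic cells. Every probe set annotated to exactly 1 gene symbol was taken if that symbol was one of the 7, which gave 20 of the 45101 probe sets on the Affymetrix Mouse Genome 430 2.0 array. Bcl11a had 7 of them, Zbtb46 had 4, Id2 had 3, Irf4 and Irf8 had 2 each, and Batf3 and Spib had 1 each. Expression was measured on 6 arrays, 3 for dendritic cells that carried Ly6G, a surface protein of neutrophils (here Ly6G+ DC), and 3 for those that lacked it (Ly6G- DC), each from its own sample. All cells came from bone marrow of C57BL/6 mice, grown for 6 days with GM-CSF at 10 ng/ml, and were sorted by flow cytometry as CD11c+ and MHC II+, with or without Ly6G. GM-CSF cultures of bone marrow are a mixed model that also holds granulocytes and macrophages, and the labels give neither the animals nor the cultures behind each array. The p-values therefore rest on a spread between samples that may be technical.

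Dendritic cells take up antigen and present it to T cells, and a small set of transcription factors directs their development from bone marrow progenitors. Irf8 with Batf3 is needed for the conventional dendritic cells that present antigen to CD8 T cells (cDC1), Irf4 for many of those that present to CD4 T cells (cDC2), and Zbtb46 marks the conventional dendritic cell lineage as a whole. Spib and Bcl11a act in plasmacytoid dendritic cells and B cells, and Id2, which blocks E proteins, favours conventional over plasmacytoid dendritic cells. Irf8 also restrains the granulocyte fate in progenitors.

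Signals were linear and scaled by the authors to a common trimmed mean, and fold changes are log2 differences of signal + 16, as Ly6G+ DC over Ly6G- DC. A probe set was kept for the test when it lay above the 40th percentile of its array on at least 3 of the 6 arrays, whatever the group. The control transcripts spiked in at hybridization fell at 2 levels that cut across the groups, with a geometric mean of 1529 to 2039 for a low side (Ly6G+ DC 1, Ly6G+ DC 3 and Ly6G- DC 1) and of 6688 to 12842 for a high side (Ly6G+ DC 2, Ly6G- DC 2 and Ly6G- DC 3). The Actb control's ratio of 3' to 5' signal was 1.17 to 1.49 among low-side arrays and 3.98 to 6.85 among high-side arrays. What differs between the sides is not given in the labels, so the differences of the 7 genes, and the counts of the other gene lists, are also given with the side as a block.

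The brightest probe sets of Irf4, Irf8, Batf3, Spib and Zbtb46, and the second of Irf8, had lower signals on every Ly6G+ DC array than on any Ly6G- DC array. Their mean differences lay between 1.59-fold (Irf4) and 2.42-fold (an Irf8 probe set) lower in Ly6G+ DC. Id2 probe sets disagreed in direction, and Bcl11a lay near or under background. Of the 20 probe sets 15 were kept, which gave each of the 7 genes at least 1.

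No probe set of these genes passed limma's test after adjustment over all 28254 kept probe sets, and neither did any other (0 of 28254, 0%, smallest adjusted p = 0.165). The kept probe sets of the 7 genes had adjusted p-values of 0.836 to 1. At an unadjusted p under 0.05, 6 of the 15 were lower in Ly6G+ DC, against 2.87% of all kept probe sets, and 0 were higher, against 2.75%. With arrays scaled to a common median, which moved the median log2 fold change of all genes to 0.24, 2 of the 15 were lower, against 0.842% of all kept probe sets, and 0 higher. Of all kept probe sets at that p, 49% were higher as reported, 88.2% with the common median and 62.6% with quantile normalization. The same 6 did not overlap between groups, all lower, against 7.24% lower and 4.49% higher among all kept probe sets. Log2 fold changes were negative for 11 of the 15, against 55% of all. Over genes, each represented by its brightest kept probe set, the median of the 7 was -0.75, against -0.07 over all 13262 genes. In bulk samples, fewer cells that express a gene and less RNA per cell cannot be told apart.

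**Figure D1:**
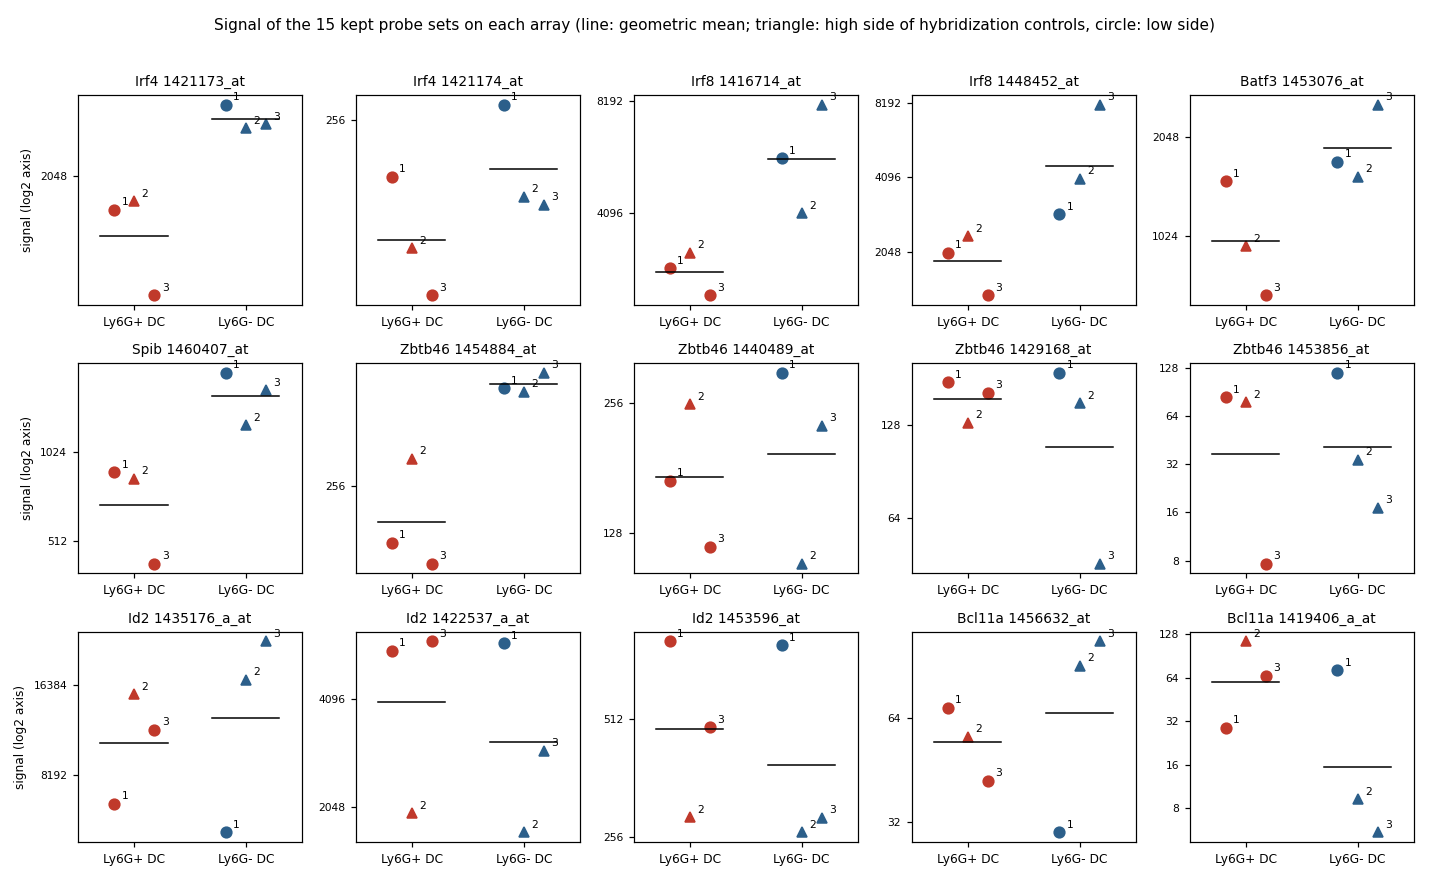
Signal on each array (log2 axis) for the 15 kept probe sets of the 7 genes, with Ly6G+ DC left of Ly6G- DC, replicate numbers beside the points and the geometric mean of 3 arrays as a line; axes differ between panels. In 6 panels (1 of Irf4, both of Irf8, Batf3, Spib and 1 of Zbtb46) every Ly6G+ DC point lies below every Ly6G- DC point.

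Irf8, which drives cDC1 and plasmacytoid dendritic cells and restrains granulocyte development, was measured by a pair of probe sets that gave the same direction. Probe set 1416714_at had signals of 2903, 3198 and 2453 on Ly6G+ DC arrays 1, 2 and 3, against 5751, 4088 and 8023 on Ly6G- DC arrays 1, 2 and 3. Ly6G- DC 3 was the highest array and Ly6G+ DC 3 the lowest, and the groups did not overlap. The log2 fold change was -1.01 ± 0.34 (SE), with a 95% interval of -1.76 to -0.26, an unadjusted p of 0.013 and an adjusted p of 0.836 (limma). Probe set 1448452_at had signals of 2035, 2373 and 1366 on Ly6G+ DC arrays, against 2912, 4053 and 8073 on Ly6G- DC arrays. Again Ly6G- DC 3 was the highest array and Ly6G+ DC 3 the lowest, with no overlap. Its log2 fold change was -1.28 ± 0.41 (SE; 95% interval -2.19 to -0.36), with an unadjusted p of 0.0109 and an adjusted p of 0.836. This second probe set also followed the hybridization control side, being 0.74 ± 0.31 (SE, log2) higher on the high side at an unadjusted p of 0.0389 and an adjusted p of 0.204. With the side as a block it had -1.03 ± 0.31, and 1416714_at had -0.97 ± 0.29 (SE).

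Batf3, the basic leucine zipper partner of Irf8 in cDC1, had a single probe set. Signals of 1453076_at were 1501, 954 and 676 on Ly6G+ DC arrays 1, 2 and 3, against 1725, 1549 and 2573 on Ly6G- DC arrays 1, 2 and 3. The groups were narrowly apart: the lowest Ly6G- DC array was 1.03 times the highest Ly6G+ DC array, and they overlapped once all arrays had been brought to a common median. The log2 fold change was -0.93 ± 0.36 (SE; 95% interval -1.73 to -0.13), with an unadjusted p of 0.027 and an adjusted p of 0.836 (limma). Within the arrays numbered 1 it was -0.20, and within those numbered 2 and 3 it was -1.30, so the size of the Batf3 difference rested mostly on numbers 2 and 3.

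Irf4, the interferon regulatory factor of cDC2 and of many GM-CSF dendritic cells, was measured by 2 probe sets of unlike brightness. Signals of 1421173_at were 1787, 1850 and 1268 on Ly6G+ DC arrays 1, 2 and 3, against 2727, 2479 and 2519 on Ly6G- DC arrays 1, 2 and 3. The 3 Ly6G- DC arrays lay close together, and the lowest of them was 1.34 times the highest Ly6G+ DC array. The log2 fold change was -0.67 ± 0.29 (SE; 95% interval -1.31 to -0.03), with an unadjusted p of 0.0424 and an adjusted p of 0.836 (limma). The dimmer probe set 1421174_at had signals of 214, 170 and 147 on Ly6G+ DC arrays, against 269, 201 and 196 on Ly6G- DC arrays. These overlapped, with a log2 fold change of -0.30 ± 0.33 (SE) and an adjusted p of 0.881.

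Spib, an ETS factor related to PU.1 that acts in plasmacytoid dendritic cells and B cells, had the smallest unadjusted p of the 7 genes. The mean signal of 1460407_at was 714 ± 247 on Ly6G+ DC arrays and 1609 ± 321 on Ly6G- DC arrays (SD, n = 3 each). Its signals were 877, 834 and 430 on Ly6G+ DC arrays 1, 2 and 3, against 1901, 1265 and 1662 on Ly6G- DC arrays 1, 2 and 3. The lowest Ly6G- DC array was 1.44 times the highest Ly6G+ DC array. This was the widest gap among the 6 kept probe sets that did not overlap. The log2 fold change was -1.20 ± 0.35 (SE; 95% interval -1.97 to -0.43), with an unadjusted p of 0.00599 and an adjusted p of 0.836 (limma). Spib was lower at an unadjusted p under 0.05 in all 18 alternative settings that gave a test, while the count was 16 of 18 for Irf8 1416714_at and 10 of 18 for Irf4 1421173_at.

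Zbtb46, a zinc finger factor of conventional dendritic cells and their committed progenitors, was measured by 4 kept probe sets that disagreed. Probe set 1454884_at had signals of 204, 286 and 188 on Ly6G+ DC arrays 1, 2 and 3, against 379, 374 and 404 on Ly6G- DC arrays 1, 2 and 3. Those groups did not overlap, and the log2 fold change was -0.75 ± 0.30 (SE; 95% interval -1.43 to -0.08), with an unadjusted p of 0.0324 and an adjusted p of 0.836 (limma). Probe set 1440489_at had signals of 169, 254 and 119 on Ly6G+ DC arrays, against 300, 108 and 226 on Ly6G- DC arrays. The groups overlapped, with Ly6G- DC 2 as the lowest array of all, and the log2 fold change was -0.17 ± 0.43 (SE). Probe set 1429168_at had signals of 177, 131 and 163 on Ly6G+ DC arrays, against 190, 151 and 45.2 on Ly6G- DC arrays, with a log2 fold change of 0.42 ± 0.48 (SE). Its positive sign rested on Ly6G- DC 3, without which it was -0.11. Probe set 1453856_at was under background on average in both groups, with signals of 83.9, 78.2 and 7.63 on Ly6G+ DC arrays and 119, 34.1 and 17.1 on Ly6G- DC arrays, so no fold is given. Statements about Zbtb46 therefore rest on 1 of its 4 probe sets.

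**Figure D2:**
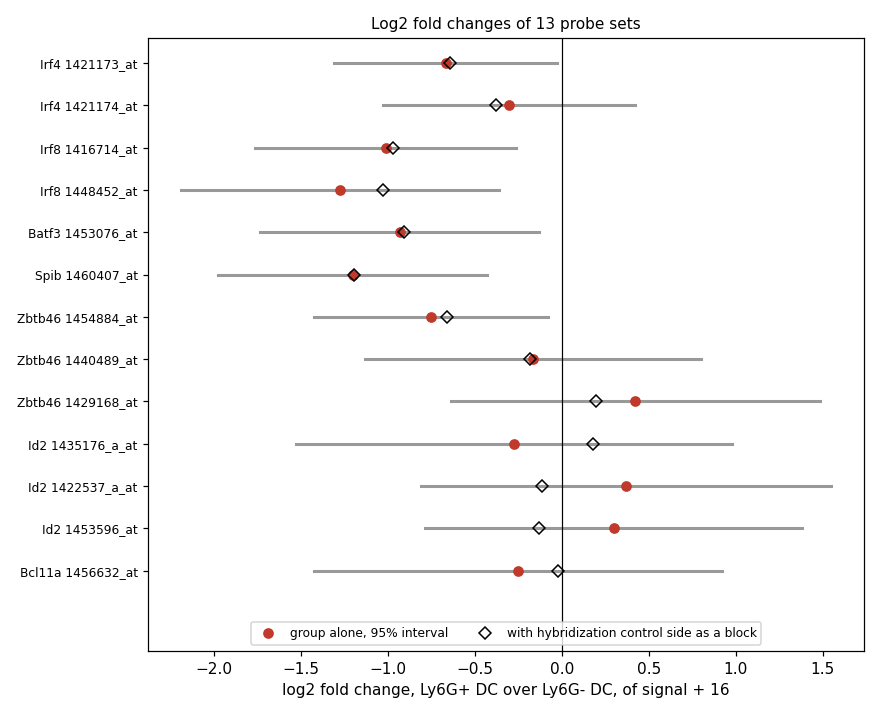
Log2 fold change of signal + 16, Ly6G+ DC over Ly6G- DC, for the 13 kept probe sets above background on average in both groups (red points with 95% intervals from limma, group alone) and the same with the control side as a block (open diamonds). The intervals of 6 probe sets lie below 0 before adjustment, and the 3 of Id2 change sign with the block.

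Id2, an inhibitor of E proteins that conventional dendritic cells need, had 3 probe sets, all above the 75th percentile on all 6 arrays. Signals of 1435176_a_at were 6525, 15262 and 11610 on Ly6G+ DC arrays 1, 2 and 3, against 5241, 17030 and 22975 on Ly6G- DC arrays 1, 2 and 3. Signals of 1422537_a_at were 5573, 1960 and 5933 on Ly6G+ DC arrays, against 5861, 1737 and 2938 on Ly6G- DC arrays, and those of 1453596_at were 812, 288 and 489, against 793, 263 and 286. Groups overlapped for all 3, and the arrays ran by hybridization control side in place of group: the first probe set was high where the others were low. On the high side 1435176_a_at was 1.36 ± 0.32 higher, while 1422537_a_at differed by -1.46 ± 0.26 and 1453596_at by -1.28 ± 0.30 (log2, SE, high over low, group in the model). These passed limma's test of the side, with adjusted p-values of 0.0391, 0.0161 and 0.039, where 4.91% of all kept probe sets passed. None of the other 12 kept probe sets of these genes did. Between the sorted groups the log2 fold changes were -0.28 ± 0.56, 0.37 ± 0.53 and 0.30 ± 0.49 (SE), with adjusted p-values of 0.907 to 0.936. With the side as a block they were 0.18 ± 0.32, -0.12 ± 0.26 and -0.13 ± 0.30 (SE), so each changed sign and the direction of Id2 between the groups was not settled.

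**Figure D3:**
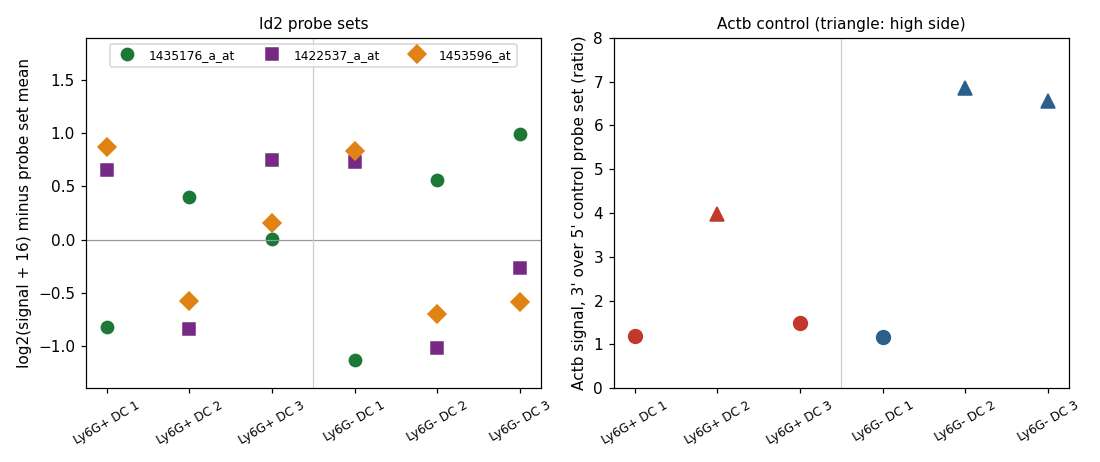
Left: log2(signal + 16) of the 3 Id2 probe sets on each array, minus each probe set's mean of the 6 arrays. Right: the 3' to 5' ratio of the Actb control on the same arrays, with triangles for high-side and circles for low-side arrays of the hybridization controls. On the 3 high-side arrays 1435176_a_at lies above its mean and the other probe sets below theirs.

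Bcl11a, a zinc finger factor of plasmacytoid dendritic cells and B cells, had 7 probe sets, of which 2 were kept and none reached the 75th percentile on any array. Probe set 1456632_at had signals of 68.4, 56.3 and 42.0 on Ly6G+ DC arrays 1, 2 and 3, against 29.9, 90.4 and 106 on Ly6G- DC arrays 1, 2 and 3. Probe set 1419406_a_at had 28.8, 115 and 66.5 on Ly6G+ DC arrays, against 72.2, 9.25 and 5.47 on Ly6G- DC arrays, and was under background on average in Ly6G- DC. These kept probe sets overlapped between groups and ran opposite to each other across the arrays. The log2 fold change of 1456632_at was -0.25 ± 0.53 (SE, adjusted p = 0.938). The other 5 probe sets of Bcl11a (1457072_at, 1447335_x_at, 1453814_at, 1447334_at and 1426552_a_at) lay above the 40th percentile on 0 to 2 arrays. They had signals of 1.82 to 214 over all arrays and were under background on average in both groups. Among them only 1457072_at had groups that did not overlap, being lower on the Ly6G+ DC arrays. At these signals a difference in Bcl11a was not detectable.

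Within each side of the hybridization controls, 2 arrays of one group meet 1 of the other. The 6 kept probe sets that did not overlap had negative log2 fold changes within both sides. Groups that do not overlap can give no other sign there, so only the sizes are informative. On the low side the values were -0.85 for Irf4 1421173_at, -1.10 and -0.80 for Irf8 1416714_at and 1448452_at, -0.77 for Batf3, -1.60 for Spib and -0.90 for Zbtb46 1454884_at. On the high side they were -0.43, -0.84 and -1.26, -1.05, -0.79 and -0.42 in the same order. With the side as a block the same 6 were lower at an unadjusted p under 0.05, against 3.22% of all kept probe sets, with adjusted p-values of 0.743 to 0.747 (limma). That fit called 0 of 28254 probe sets (0%). Their count at an unadjusted p under 0.05 was 2 without Ly6G+ DC 3 (Irf8 1416714_at and Spib) and 1 without Ly6G- DC 3 (Spib), where 1.1% and 1.25% of all kept probe sets were lower at that p. It was 4 when any one of the other 4 arrays was left out, where the share over all was 2.02% to 6.52%. An exact two-sided permutation test over the arrays gave p = 0.1 for each of the 6. This is the smallest p that 3 against 3 allows, and groups that do not overlap always give it.

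Across arrays these 6 probe sets ran together. Ly6G+ DC 3 was the lowest of all arrays for each of the 6, and Ly6G- DC 3 the highest for 4. Ly6G+ DC 3 also had the lowest median signal over all probe sets (56.0), and Ly6G- DC 3 the highest (90.8). The part of this offset in the shared pattern was not tested. Pearson's r of log2 values over the 6 arrays lay between 0.743 and 0.985 for the 14 pairs of probe sets of different genes, with the highest for Irf4 1421173_at and Spib. All points share the 6 libraries and the group difference, and the 6 were picked for that shared direction, which favours a positive r. These values are descriptions. Among 91 other genes of dendritic cells and other blood cells, described further on as lists, the closest pattern to Batf3 was that of H2-Ab1, an MHC class II chain (r = 0.995), followed by Stat5a (0.915) and Ccl22 (0.905). The closest to Zbtb46 was Nr4a3, a nuclear receptor of migratory dendritic cells (r = 0.982), then Pacsin1 (0.906) and Snx22 (0.904). Stat5a, which signals downstream of the GM-CSF receptor, came first for Irf4 (r = 0.927) and Spib (r = 0.962). Bst2 and H2-Ab1 came next for both, at 0.871 and 0.870 for Irf4 and at 0.935 and 0.898 for Spib. The closest to Irf8 was Gata1 (r = 0.983), a factor of erythroid, mast cell and eosinophil lineages, then Pdcd1lg2 (0.953) and H2-Eb1 (0.924). Gata1 was itself near background, above the 40th percentile on 1 of 3 Ly6G+ DC arrays and on 3 of 3 Ly6G- DC arrays. Id2 1435176_a_at ran closest to Klf4 (r = 0.965), Runx1 (0.959) and Ncr1 (0.897). Bcl11a 1456632_at ran closest to Notch2 (r = 0.942), Cox6a2 (0.898) and Siglech (0.892).

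The RefSeq sequence before the start sites of the genes with separated groups is shown. It covers 250 bases before the annotated start (GRCm38.p6, 5' to 3' on the gene's strand). All 7 genes matched, with 8 start sites, as Irf8 has 2, of which the more upstream is printed. Capitals mark matches to the motifs named after the sequences. The windows are chr8:120736108-120736357 (+) for Irf8, chr1:191098164-191098413 (+) for Batf3, chr13:30748983-30749232 (+) for Irf4, chr7:44532072-44532321 (-) for Spib and chr2:181424389-181424638 (-) for Zbtb46.
Irf8: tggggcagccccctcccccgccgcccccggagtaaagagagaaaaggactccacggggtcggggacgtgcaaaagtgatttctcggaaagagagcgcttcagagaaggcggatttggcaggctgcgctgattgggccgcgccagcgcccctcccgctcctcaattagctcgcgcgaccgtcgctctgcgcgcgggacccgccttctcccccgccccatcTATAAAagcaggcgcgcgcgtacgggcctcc
Batf3: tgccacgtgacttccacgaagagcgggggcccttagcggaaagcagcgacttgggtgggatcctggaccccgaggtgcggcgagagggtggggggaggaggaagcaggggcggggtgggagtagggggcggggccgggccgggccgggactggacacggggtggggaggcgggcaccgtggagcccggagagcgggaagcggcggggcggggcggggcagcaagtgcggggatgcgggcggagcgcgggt
Irf4: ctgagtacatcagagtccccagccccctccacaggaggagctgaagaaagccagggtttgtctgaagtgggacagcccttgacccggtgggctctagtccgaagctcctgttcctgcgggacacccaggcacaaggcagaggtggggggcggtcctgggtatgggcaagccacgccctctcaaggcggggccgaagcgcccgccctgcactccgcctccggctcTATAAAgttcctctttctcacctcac
Spib: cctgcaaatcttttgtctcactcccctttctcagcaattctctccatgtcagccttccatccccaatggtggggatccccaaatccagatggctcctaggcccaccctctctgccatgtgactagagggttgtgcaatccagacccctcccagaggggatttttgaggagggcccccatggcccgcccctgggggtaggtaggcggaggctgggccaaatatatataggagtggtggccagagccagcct
Zbtb46: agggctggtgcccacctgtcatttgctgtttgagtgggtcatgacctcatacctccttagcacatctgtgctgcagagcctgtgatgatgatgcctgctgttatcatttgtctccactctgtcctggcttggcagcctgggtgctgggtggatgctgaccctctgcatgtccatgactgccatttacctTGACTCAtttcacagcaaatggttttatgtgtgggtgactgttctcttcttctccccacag

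The printed sequences differed in composition, with G and C at 76% of bases for Batf3, 67.2% for Irf8, 63.6% for Irf4, 58% for Spib and 51.6% for Zbtb46. CG dinucleotides numbered 27, 29, 11, 2 and 0 in the same order. Motifs were searched on both strands over 300 bases, 250 before to 50 after each of 32851 RefSeq start sites. The ETS-IRF composite element, which Irf4 and Irf8 bind with PU.1 or Spib, was in 0 of the 8 windows of these genes and in 2.72% of all. The core of the interferon response element was in 0 of 8 and 3.44% of all, and the PU box GAGGAAGT in 0 of 8 and 3.2%. The AP-1 site TGANTCA, the kind that Batf3 binds with Jun proteins, was in 1 of 8 and in 7.81% of all. It started 61 bases before the annotated start of Zbtb46, and whether that start is used in these cells was not tested. It reads as a match on both strands at the same place. TATAAA was in 2 of 8, starting 31 bases before the start of Irf8 and 26 before that of Irf4, and in 13.6% of all. On the gene's strand and starting 40 to 21 bases before the start it was in the same 2 of 8 and in 1.99% of all. The last motif was chosen after the sequences were seen. No match says only that these letters are not in the window.

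Other regulators of dendritic cells had both signs in equal number, though with a common median 9 were negative and 17 positive. Of 26 measured of 29, in a fit with 1 probe set per gene, 13 had negative and 13 positive log2 fold changes, with a median of -0.00073, against -0.07 and 55.7% negative over all genes. None of the 13262 genes passed limma's test (0%), the lowest adjusted p being 0.0578. At an unadjusted p under 0.05, 3 of the 26 were lower, against 3.51% of all genes, and 1 was higher, against 3.39%. The 3 were Flt3, the receptor for the growth factor of conventional dendritic cells, Stat5a and Nr4a3. Signals of Stat5a were 941, 723 and 620 on Ly6G+ DC arrays 1, 2 and 3, against 1639, 1159 and 1517 on Ly6G- DC arrays 1, 2 and 3, with a log2 fold change of -0.91 ± 0.29 (SE, adjusted p = 0.694). Signals of Flt3 were 33.2, 32.9 and 38.3 on Ly6G+ DC arrays, under the 40th percentile on arrays 1 and 2, against 128, 147 and 251 on Ly6G- DC arrays. Flt3 passed the filter only with the Ly6G- DC arrays, so the filter fixed part of its separation. Signals of Nr4a3 were 2896, 4284 and 2889 on Ly6G+ DC arrays, against 5036, 5716 and 6368 on Ly6G- DC arrays. The 1 higher gene was Zeb2, a transcriptional repressor. Its signals were 911, 1292 and 1319 on Ly6G+ DC arrays, against 220, 804 and 699 on Ly6G- DC arrays. Its log2 fold change was 1.18 ± 0.44 (SE, adjusted p = 0.705). Nr4a3 and Zeb2 were named after their values were seen. Rbpj, the brightest of the regulators, had 0.15 ± 0.30 (SE).

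Genes of the subsets that these factors govern had mixed signs, and the count of negative members moved with the scaling. Of 12 listed cDC1 genes 8 were measured. Xcr1, Tlr3 and Gcsam lay under the filter, and Clec9a had no probe set annotated to it alone. Of the 8 measured, 5 were negative (4 with a common median), with a median of -0.29, and 0 had an unadjusted p under 0.05. Snx22 and Cd8a had -0.83 ± 0.39 and -0.61 ± 0.34, and Naaa had 0.24 ± 0.32 (log2, SE). Of 10 genes of cDC2 and GM-CSF dendritic cells 4 were negative (2 with a common median), with a median of 0.04. Itgam, an integrin chain that neutrophils and macrophages also carry, had 1.54 ± 0.51 (SE, unadjusted p = 0.0124), Clec4a2 had 0.94 ± 0.43 and Ccl22 had -0.76 ± 0.40. The 8 genes of plasmacytoid dendritic cells other than Spib were all negative as deposited, against 55.7% of all genes, with a median of -0.46. With a common median or quantile normalization 5 of 8 were negative. Ccr9, Siglech, Ly6d and Cox6a2 lay near background, each under the 40th percentile on at least 1 array. Siglech and Ccr9 had -0.04 each. With the control side as a block 6 of 8 were negative, Siglech and Cox6a2 being at 0.27 and 0.45. Of these Bst2, which interferon also induces, had an unadjusted p under 0.05 (-1.14 ± 0.42, SE, adjusted p = 0.705), and Pacsin1 had -0.63 ± 0.34.

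**Figure D4:**
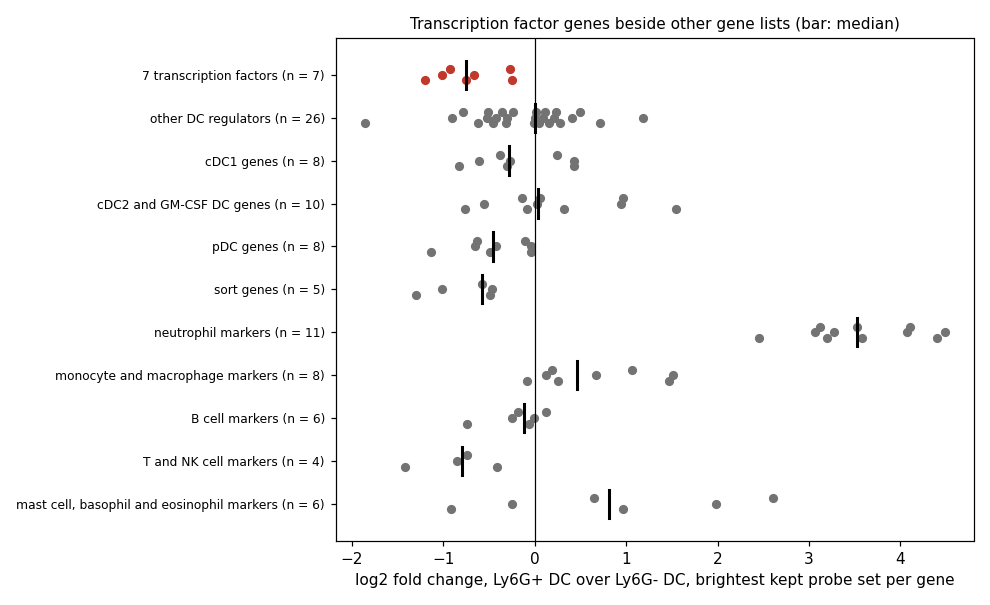
Log2 fold change, Ly6G+ DC over Ly6G- DC, of each gene's brightest kept probe set for the 7 transcription factors (red) and for the other gene lists (grey), with the median of each list as a bar. The 7 have a median of -0.75, and the neutrophil markers lie between 2.45 and 4.48.

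Markers of other cells differed in the same comparison. The signal of each of the 11 neutrophil markers measured was higher on every Ly6G+ DC array than on any Ly6G- DC array, against 4.95% of all genes, and their summed signal was 68928 to 93657 on Ly6G+ DC arrays and 2312 to 13121 on Ly6G- DC arrays. Of the 11, Cxcr2 and Cd177 lay under the 40th percentile on every Ly6G- DC array. Camp and Stfa2l1 lay above it on 1 of 3 Ly6G- DC arrays, and Ltf and Csf3r on 2 of 3. All of these passed the filter only with the Ly6G+ DC arrays, so the filter fixed part of their separation. Cxcr2, a chemokine receptor, had signals of 256, 287 and 296 on Ly6G+ DC arrays, against 14.7, 24.3 and 19.2 on Ly6G- DC arrays, which is at least 3.96-fold higher with each Ly6G- DC array set to its 40th percentile. Ngp, a granule protein, and S100a8 lay above that percentile on all 6 arrays, with log2 fold changes of 3.20 ± 0.45 and 3.53 ± 0.51 (SE, adjusted p = 0.0578 each). None of the 11 was at 0 on any array. The genes behind the sort (Itgax for CD11c, Cd74 and 3 chains of MHC class II) were all negative, with a median of -0.57, and 2 of the 5 did not overlap, lower, against 7.86% of all genes. With a common median or quantile normalization all 5 were negative and 0 of them separated the groups. H2-Aa and Cd74 had -1.30 ± 0.74 and -1.02 ± 0.54 (SE), and with the control side as a block -0.61 ± 0.25 and -0.63 ± 0.28. H2-Aa ran by side: its signals were 14475, 22236 and 22344 on low-side arrays and 62040, 111128 and 120546 on high-side arrays.

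Of 8 monocyte and macrophage markers 7 were positive (8 with a common median), with a median of 0.47 and summed signals of 38729 to 43557 on Ly6G+ DC arrays and 22368 to 46890 on Ly6G- DC arrays. Cd14 and Ccr2 had 1.52 ± 0.57 and 1.06 ± 0.42, and Csf1r had -0.08 ± 0.45 (log2, SE). The 6 measured markers of B cells, which also use Spib and Bcl11a, summed to 880 to 1297 on Ly6G+ DC arrays and 951 to 1355 on Ly6G- DC arrays, without a settled direction (5 of 6 negative as deposited, 1 with a common median), with Ms4a1 at -0.75 ± 0.37, Pax5 at -0.25 ± 0.39 and Blnk at 0.12 ± 0.33. The 4 measured T and NK cell markers summed to 4345 to 5554 on Ly6G+ DC arrays and 5960 to 7991 on Ly6G- DC arrays. Il7r alone had 5087, 4110 and 3240 on Ly6G+ DC arrays, against 6603, 4189 and 5806 on Ly6G- DC arrays. Cd3e, Cd3g and Cd2 lay under the filter, and Lck had no probe set annotated to it alone. Zap70 had -1.42 ± 0.49, Klrd1 -0.86 ± 0.32 and Il7r -0.41 ± 0.33 (log2, SE). The 6 measured mast cell, basophil and eosinophil markers summed to 1539 to 3180 on Ly6G+ DC arrays and 965 to 1242 on Ly6G- DC arrays, with 4 positive and 2 negative. Fcer1a and Ms4a2 of that list, and Ebf1 of the B cell markers, lay under the filter. Prg2 had 2.61 ± 0.52 and Epx 1.98 ± 0.63, while Gata1, lower without overlap, had -0.92 ± 0.47 and Gata2 -0.25 ± 0.29 (log2, SE). Epx lay above the 40th percentile on 2 of 3 Ly6G- DC arrays, and Gata1 on 1 of 3 Ly6G+ DC arrays. Each passed the filter only with the group where it was higher, so the filter fixed part of its separation. With the control side as a block the lists of neutrophil and of monocyte and macrophage markers were positive for 11 of 11 and 8 of 8 genes, with medians of 3.37 and 0.41. Those of the sort genes and of T and NK cells were negative for 5 of 5 and 4 of 4, with medians of -0.59 and -0.60. Of the other DC regulators 15 of 26 were negative with the block, of the cDC1 genes 4 of 8, of the cDC2 and GM-CSF DC genes 4 of 10, of the B cell markers 5 of 6 and of the mast cell, basophil and eosinophil markers 2 of 6. Among the genes named from the lists, Csf1r and Blnk turned sign with the block, to 0.15 and -0.06, and Naaa, Cd8a and Gata2 lay closer to 0, at 0.04, -0.40 and -0.12. Camp, Stfa2l1, Ltf, Csf3r, Cd177, Ccr9, Ly6d and Gata2 were named after their values were seen. The part of these markers in the lower signals of Irf4, Irf8, Batf3, Spib and Zbtb46 was not tested. The gene of the sort marker, Ly6g, was not named in the annotation used here.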

How the data were processed

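The authors deposited linear signal intensities per probe set for 6 arrays, scaled so that the mean after trimming 2% at either end was 250 on each. Affymetrix Expression Console 2.0, MAS5 and GCOS are named per the submitters' processing notes, and other settings are not given in the sources used here. Because MAS5 subtracts mismatch probes, dim probe sets vary widely. The number of arrays limits the precision.

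Probe sets were named through the platform annotation, in which 34958 of 45101 have 1 gene symbol, and the 64 control probe sets were left out of the tests. Signals were analysed as log2(signal + 16), which understates the change of dim genes. The comparison used limma 3.58.1 (R 4.3.3, intensity trend, group alone, Benjamini-Hochberg adjustment over all kept probe sets or genes, threshold 0.05). Background was set per array at the 40th percentile, and a group's mean log2 value was compared with the mean of its 3 backgrounds. The fit was tested on simulated data.

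The 7 genes and the lists were chosen with earlier results of these data known. The text names all their probe sets, and of each list the 2 genes with the smallest unadjusted p and the brightest. The hybridization control side comes from the mean log2 signal of 18 control probe sets, cut where neighbouring arrays lay farthest apart. Alternatives were other normalizations, pseudocounts, filters, variance models, 1 probe set per gene, blocks and leaving out each array.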

Additional observations from a re-analysis of the deposited data

How the results depend on the processing

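Of 253 log2 fold changes under alternatives, of the 13 kept probe sets of the 7 genes that lay above background on average in both groups, 230 kept their sign and their side of the threshold, 23 changed sign and 0 passed. The smallest adjusted p of any was 0.133. The other 2 kept probe sets have no fold; the sign of Zbtb46 1453856_at was negative in 11 of 16 alternatives and that of Bcl11a 1419406_a_at in 0 of 16. All sign changes were in probe sets whose groups overlapped, and the cause was not tested unless stated in the report. For groups that do not overlap, no sign can change within a side or with an array left out. With common median scaling, Irf4 1421174_at had 0.0033, Zbtb46 1440489_at had 0.13, Id2 1435176_a_at had 0.056 and Bcl11a 1456632_at had 0.014, which was 0.016 with quantile normalization. With the control side as a block, the Id2 probe sets 1435176_a_at, 1422537_a_at and 1453596_at had 0.18, -0.12 and -0.13. Within the low side they had 0.73, -0.027 and -0.32, with Zbtb46 1429168_at at -0.15 and Bcl11a 1456632_at at 0.61, and within the high side 1422537_a_at had -0.20 and Zbtb46 1440489_at had 0.64.

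Leaving out 1 array at a time gave ranges of -0.55 to 0.12 for Zbtb46 1440489_at, -0.11 to 0.77 for Zbtb46 1429168_at, -0.91 to 0.15 for Id2 1435176_a_at, -0.046 to 0.89 for 1422537_a_at, -0.061 to 0.79 for 1453596_at and -0.69 to 0.018 for Bcl11a 1456632_at.

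Common median scaling moved the median log2 fold change of all genes to 0.24, against -0.07, and that of the 7 genes to -0.44, against -0.75. The difference between these medians was -0.676 with this scaling and -0.685 as reported. Such a scaling shifts all log2 fold changes by nearly the same amount, so this difference could hardly move. With the common median 2 probe sets of the 7 genes were lower at an unadjusted p under 0.05 (Irf8 1448452_at and Spib), against 6. Among all kept probe sets 0.842% were lower at that p, against 2.87% as reported. Of all probe sets at that p, 88.2% were higher, against 49% as reported. That share was 62.6% with quantile normalization and 61.9% with the filter at the 60th percentile. Leaving out 1 array gave 1 to 4 lower probe sets of the 7 genes, where 1.1% to 6.52% of all were lower. Those higher numbered 0 to 1, the 1 being Bcl11a 1419406_a_at without Ly6G- DC 1. In that setting 2088 of all 28254 kept probe sets were higher at that p.

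Over all probe sets limma called 0, with 21 for the array name in the titles as a block and 19 for the replicate number as a block (replicate block), and 0 to 24 when 1 array was left out. Calls numbered 24 without Ly6G- DC 1, and 1 each without Ly6G+ DC 2 and without Ly6G- DC 2. All these calls were higher in Ly6G+ DC and none was of the 7 genes. Deviations from group means correlated at 0.52, 0.26 and -0.04 between arrays of the same number, and not every array correlated best with its own number, so the numbers were not taken as pairs. The replicate block left 6 probe sets of the 7 genes lower at an unadjusted p under 0.05, against 4.76% of all kept probe sets. The scalings and the block of the gene lists were chosen after seeing the data. At a signal under the 40th percentile, as for most Bcl11a probe sets, no difference could be measured.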
